A study of Xenopus laevis with 8 samples.

Results

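Thyroid hormone acts on the brain through nuclear receptors that bind DNA as partners of retinoid X receptors and turn genes on when the hormone T3 is bound. How much T3 reaches a cell depends on membrane transporters, on the deiodinase encoded by dio2, which makes T3 from its precursor T4, and on the deiodinase encoded by dio3, which inactivates both. In Xenopus, thyroid hormone drives metamorphosis, and thrb, klf9 and thibz are known there as genes that T3 induces directly. The levels of these genes were measured in whole brains of stage NF47 Xenopus laevis tadpoles, well before metamorphosis. The genes were chosen by name: the receptors thra and thrb, the deiodinases dio1, dio2 and dio3, the transporters slc16a10 and slco1c1, and the response genes klf9 and thibz. X. laevis is allotetraploid, and 7 of the 9 genes had both an L and an S homeologue in the count table while dio1 and slco1c1 had L alone, which gave 16 of 41881 rows.

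The neurod2 CRISPants were F0 tadpoles raised from eggs injected at the one-cell stage with Cas9 and a frameshift-inducing sgRNA against both neurod2 homeologues, so each brain holds edited cells beside cells that escaped editing. The controls were siblings that received Cas9 alone. Each group had 4 samples, each a pool of 4 whole brains, and all animals came from a single sibship. P-values therefore measure the spread between pools of siblings. Total counts per pool ranged from 18945762 to 25509904 in CRISPants and from 20985937 to 25937707 in controls. The targeted gene neurod2.L was at 18.98 to 31.1 CPM (read counts scaled to library size, normalised by TMM) in CRISPant pools and 32.9 to 38.6 CPM in control pools, and neurod2.S at 26.7 to 45.7 CPM in CRISPants and 40.3 to 52.2 CPM in controls, where the groups overlapped.

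Of the 16 rows, 13 had enough counts to be tested with edgeR, and dio3.S, thibz.L and thibz.S did not. In CRISPant brains dio2.L, dio2.S and thrb.S were higher, dio3.L and slco1c1.L were lower, and 8 genes did not pass the test (adjusted p under 0.05 over all genes). No tested gene of the set changed by more than 2-fold, while 3.58% of all genes passed the test with a change of more than 2-fold. The 5 calls are 38.5% of the genes tested, while 42.4% of all 25171 genes tested were called, so the set did not stand out by its number of calls. By direction, 21.7% of all genes were higher and 20.8% lower. The median log2 fold change of the 13 genes was 0.08, and that of all genes was -0.002. The pools of the groups did not overlap for 1 of the 13 genes, dio2.L, against 37.8% of all genes. With the homeologues of each gene summed, dio2 was higher and dio3 and slco1c1 were lower.

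**Figure D1:**
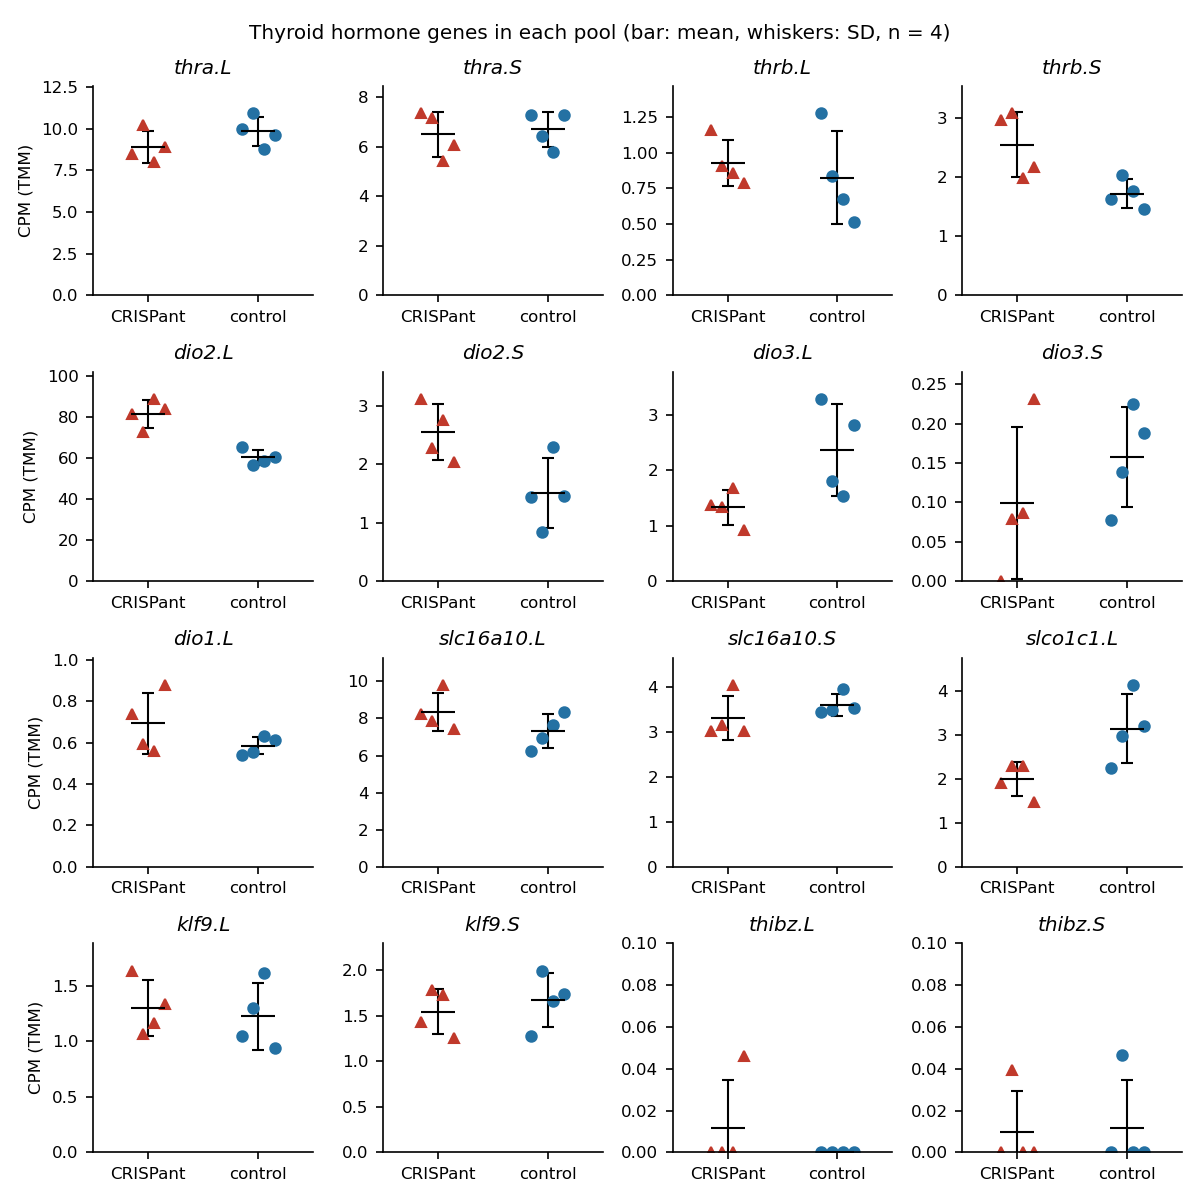
CPM normalised by TMM (y axis, from 0, with its own scale in each panel) of the 16 thyroid hormone gene rows in the 4 neurod2 CRISPant pools (red triangles) and the 4 control pools (blue circles), with the mean (bar) and SD (whiskers). All CRISPant pools lie above all control pools for dio2.L alone, and both thibz rows lie at or next to 0.

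The activating deiodinase gene dio2 was higher in CRISPant brains for both homeologues. dio2.L, at 74548660 to 74569136 on chromosome 8L (v10.1 assembly), was at 81.3, 72.6, 88.8 and 84.1 CPM in CRISPant pools 3, 4, 7 and 9, against 65.6, 56.8, 58.5 and 60.5 CPM in control pools 1, 2, 4 and 5. Every CRISPant pool was above every control pool. The means were 81.7 ± 6.83 CPM in CRISPants and 60.4 ± 3.78 CPM in controls (SD, n = 4 pools each), which is a rise of 35.2% (log2 fold change 0.44 ± 0.06 SE, edgeR quasi-likelihood test, adjusted p = 1.8e-05). In a whole brain, more RNA per cell and more cells that carry the RNA cannot be told apart. In adult rodents dio2 is expressed mainly by astrocytes and tanycytes. Of 8 rows tested from a list of radial glia and astroglia markers, 2 rose and 4 fell, which is 75% called against 42.4% of all genes. The summed level of the list was 2754 to 2985 CPM in CRISPants and 2626 to 2958 CPM in controls. The largest change of the list was a fall of aldh1l1.L, a folate enzyme gene used as an astrocyte marker. It was at 12.0, 13.7, 11.1 and 9.54 CPM in CRISPant pools 3, 4, 7 and 9, against 37.6, 40.1, 41.0 and 34.2 CPM in control pools 1, 2, 4 and 5 (log2 fold change -1.72, edgeR adjusted p = 3.7e-11). Glutamine synthetase fell in both homeologues, with log2 fold changes of -0.89 for glul.L and -0.86 for glul.S (adjusted p = 6.7e-08 and 7.5e-08 from edgeR). In the other direction, fabp7.L, a fatty acid binding protein of radial glia and the most abundant row of the list, rose (log2 fold change 0.43, adjusted p = 3.3e-04 from edgeR). The part of these cells in the rise of dio2 was not tested.

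dio2.S, at 24999046 to 25014669 on chromosome 8S, gave few counts, between 18 and 64 per pool, and dio2.L held 96.2% to 98.6% of all dio2 counts in each of the 8 pools. It was at 3.12, 2.29, 2.76 and 2.04 CPM in CRISPant pools 3, 4, 7 and 9, against 1.43, 0.835, 2.29 and 1.46 CPM in control pools 1, 2, 4 and 5. The groups overlapped through control pool 4, which was above CRISPant pool 9 and level with CRISPant pool 4. Its log2 fold change was 0.75 ± 0.24 (SE, edgeR adjusted p = 0.017), and the call was lost without control pool 2 (adjusted p = 0.064) or CRISPant pool 3 (adjusted p = 0.060). The ratio of L to S showed no difference past the threshold between CRISPants and controls (log2 difference -0.35 ± 0.26 SE, limma adjusted p = 0.36).

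The inactivating deiodinase gene dio3 was lower in CRISPant brains. dio3.L, at 88356700 to 88358267 on chromosome 8L, was at 1.38, 1.34, 1.68 and 0.926 CPM in CRISPant pools 3, 4, 7 and 9, against 3.29, 1.81, 1.53 and 2.82 CPM in control pools 1, 2, 4 and 5. Control pools 1 and 5 were highest, and the groups overlapped only in that CRISPant pool 7 was above control pool 4. The means were 1.33 ± 0.31 CPM in CRISPants and 2.36 ± 0.83 CPM in controls (SD, n = 4 pools each), and the gene fell by 43.8% (log2 fold change -0.83 ± 0.25 SE, edgeR adjusted p = 0.012). The gene had 20 to 85 counts per pool. Without control pool 1 the log2 fold change was -0.62 and no longer passed (edgeR adjusted p = 0.072). dio3.S was too low to be tested, with 9 counts over the CRISPant pools and 14 over the control pools.

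The ratio of dio2 to dio3 counts was higher in every CRISPant pool than in any control pool. Summed over homeologues there were 61.4, 52.7, 51.9 and 74.4 dio2 counts for each dio3 count in CRISPant pools 3, 4, 7 and 9. In control pools 1, 2, 4 and 5 there were 19.9, 29.6, 34.7 and 20.6. This ratio was formed after the values of both genes were seen and is given as a description. It depends on the length and mappability of both genes and is to be compared between pools, not read as a ratio of enzymes.

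dio1.L encodes a deiodinase that in mammals is found mainly in liver, kidney and thyroid. It was close to the limit of the test, at 0.741, 0.592, 0.560 and 0.880 CPM in CRISPant pools 3, 4, 7 and 9 and at 0.542, 0.556, 0.630 and 0.611 CPM in control pools 1, 2, 4 and 5. The groups overlapped, and the log2 fold change of 0.23 had a 95% interval from -0.40 to 0.87 (adjusted p = 0.56 from edgeR). Its RefSeq model overlaps a neighbouring gene over 995 bp, and whether this holds in the annotation used for counting, which was not used here, is not known.

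**Figure D2:**
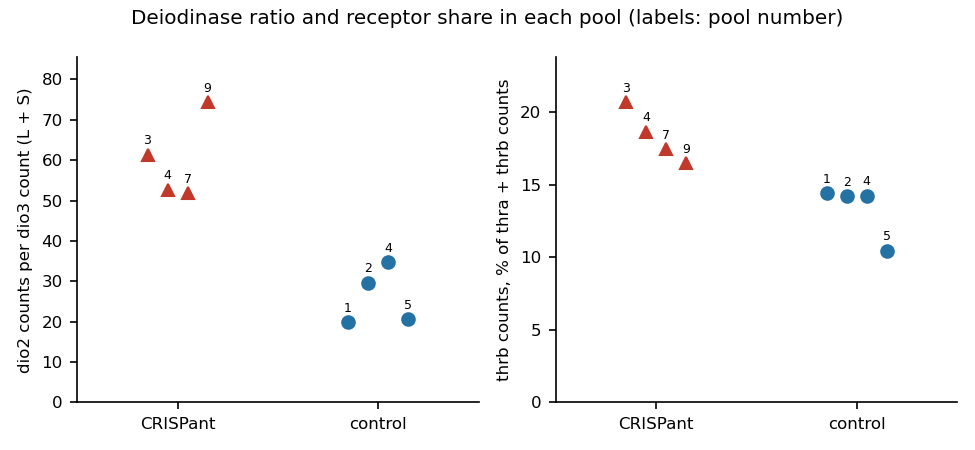
Counts of dio2 per count of dio3, both summed over L and S (left y axis), and counts of thrb as a percentage of thra plus thrb counts (right y axis), in each of the 4 neurod2 CRISPant pools (red triangles) and the 4 control pools (blue circles), with pool numbers as labels. The deiodinase ratio spans 51.9 to 74.4 in CRISPants and 19.9 to 34.7 in controls, and the receptor share 16.5% to 20.7% in CRISPants and 10.4% to 14.4% in controls.

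Of the receptors, thrb.S was higher in CRISPant brains while thra did not pass the test in either homeologue. thrb.S, at 39312935 to 39533917 on chromosome 6S, was at 2.96, 3.08, 1.98 and 2.18 CPM in CRISPant pools 3, 4, 7 and 9, against 1.63, 2.04, 1.75 and 1.46 CPM in control pools 1, 2, 4 and 5. CRISPant pools 3 and 4 were highest, and CRISPant pool 7 was below control pool 2. The log2 fold change was 0.57 ± 0.20 (SE, edgeR adjusted p = 0.029), a rise of 48.1%. This was the least secure of the 5 calls, since it was lost without any one of control pools 1 or 5 or CRISPant pools 3 or 4 (adjusted p between 0.067 and 0.103 from edgeR).

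thrb.L was at 1.16, 0.908, 0.861 and 0.787 CPM in CRISPant pools 3, 4, 7 and 9 and at 1.28, 0.835, 0.675 and 0.517 CPM in control pools 1, 2, 4 and 5. Control pool 1 was the highest of the 8. Its log2 fold change of 0.14 had a 95% interval from -0.49 to 0.76 (adjusted p = 0.74 from edgeR), which holds the value of thrb.S, and the ratio of L to S showed no difference past the threshold between CRISPants and controls (log2 difference -0.32 ± 0.23 SE, limma adjusted p = 0.34). The RefSeq models of the homeologues are unequal, since that of thrb.L spans 6748 bp with 1 transcript and that of thrb.S 220983 bp with 4. Which exons were counted is not known, and the levels of the homeologues were not compared with each other. With both summed, thrb had a log2 fold change of 0.44 and fell short of the threshold (edgeR adjusted p = 0.061).

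thra.L, at 1863574 to 1951134 on chromosome 9_10L, was at 8.46, 10.3, 8.01 and 8.93 CPM in CRISPant pools 3, 4, 7 and 9, against 9.99, 10.9, 8.82 and 9.64 CPM in control pools 1, 2, 4 and 5. thra.S, at 1642396 to 1730451 on chromosome 9_10S, was at 7.35, 7.14, 5.43 and 6.06 CPM in CRISPant pools 3, 4, 7 and 9, against 7.28, 6.44, 5.80 and 7.29 CPM in control pools 1, 2, 4 and 5. The groups overlapped for both. The log2 fold changes were -0.14 (95% interval -0.37 to 0.08) for thra.L and -0.05 (-0.31 to 0.22) for thra.S, with adjusted p = 0.31 and 0.79 from edgeR. Both lie on the chromosomes of the edited gene, with 369590 bp between thra.L and neurod2.L and 337987 bp between thra.S and neurod2.S. The share of thrb in all receptor counts was 20.7%, 18.6%, 17.5% and 16.5% in CRISPant pools 3, 4, 7 and 9 and 14.4%, 14.2%, 14.2% and 10.4% in control pools 1, 2, 4 and 5. The groups did not overlap in this share, which was formed after the values were seen and was not tested.

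The transporter gene slco1c1.L was lower in CRISPant brains. In mammals it encodes OATP1C1, a carrier of T4 at the blood-brain barrier and choroid plexus. It was at 1.90, 2.29, 2.28 and 1.48 CPM in CRISPant pools 3, 4, 7 and 9, against 2.25, 2.97, 4.14 and 3.20 CPM in control pools 1, 2, 4 and 5. CRISPant pools 4 and 7 were level with control pool 1, and control pool 4 was highest. The gene fell by 35.9% (log2 fold change -0.64 ± 0.20 SE, edgeR adjusted p = 0.015), and the call was lost without control pool 4 (adjusted p = 0.078) or CRISPant pool 9 (adjusted p = 0.059).

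Markers of brain endothelium and choroid plexus were read beside it. Of 17 brain endothelium rows tested, 3 fell and 1 rose, which is 23.5% called against 42.4% of all genes. The endothelial receptor kinase gene tie1 fell in both homeologues, with log2 fold changes of -0.59 for tie1.L and -0.46 for tie1.S (adjusted p = 2.5e-04 and 0.0073 from edgeR), and the tight junction gene cldn5.L fell with -0.35 (adjusted p = 0.0016 from edgeR). pecam1.S, an endothelial adhesion gene, rose with 0.62 (adjusted p = 0.022 from edgeR), a call lost without control pools 1 or 4 or CRISPant pool 7. Their other homeologues, cldn5.S with -0.04 and pecam1.L with 0.007, did not pass (adjusted p = 0.73 and 0.98 from edgeR). The summed level of the list was 373 to 393 CPM in CRISPants and 394 to 435 CPM in controls. The most abundant rows in this sum were slc2a1.L and slc2a1.S, with means of 141.2 and 82.5 CPM in controls. Neither passed (log2 fold changes -0.06 and -0.18, adjusted p = 0.36 and 0.069 from edgeR). Of 10 choroid plexus rows tested, 1 fell and 9 did not pass, and the summed level was 179 to 239 CPM in CRISPants and 186 to 212 CPM in controls. The part of these cells in the fall of slco1c1.L was not tested.

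slc16a10 encodes MCT10, a carrier of thyroid hormone and aromatic amino acids. slc16a10.L was at 8.25, 7.85, 9.82 and 7.45 CPM in CRISPant pools 3, 4, 7 and 9, against 6.24, 6.95, 7.65 and 8.37 CPM in control pools 1, 2, 4 and 5. slc16a10.S was at 3.02, 3.16, 4.05 and 3.01 CPM in CRISPant pools 3, 4, 7 and 9, against 3.45, 3.48, 3.96 and 3.53 CPM in control pools 1, 2, 4 and 5. The groups overlapped for both, with log2 fold changes of 0.20 (95% interval -0.06 to 0.45, adjusted p = 0.21) and -0.12 (-0.44 to 0.20, adjusted p = 0.56) from edgeR. The ratio of L to S was higher in CRISPants. slc16a10.L made up 73.2%, 71.3%, 70.8% and 71.2% of slc16a10 counts in CRISPant pools 3, 4, 7 and 9, against 64.4%, 66.7%, 65.9% and 70.4% in control pools 1, 2, 4 and 5. The log2 difference in the ratio was 0.32 ± 0.09 (SE, limma adjusted p = 0.036), the only one of 5 pairs that passed, while 24.0% of 7427 pairs over all genes passed. This call was lost in 7 of the 8 fits that left out a pool and with limma-trend (adjusted p = 0.15).

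Of the response genes klf9 and thibz, klf9 gave low levels that did not pass the test in either homeologue, and thibz was too low to be tested. klf9.L, at 140529834 to 140538841 on chromosome 1L, encodes a zinc finger transcription factor. It was at 1.64, 1.07, 1.16 and 1.34 CPM in CRISPant pools 3, 4, 7 and 9, against 1.05, 1.30, 1.62 and 0.940 CPM in control pools 1, 2, 4 and 5. klf9.S was at 1.43, 1.78, 1.72 and 1.25 CPM in CRISPant pools 3, 4, 7 and 9, against 1.28, 1.99, 1.66 and 1.74 CPM in control pools 1, 2, 4 and 5. The groups overlapped throughout, with log2 fold changes of 0.08 (95% interval -0.44 to 0.60) for klf9.L and -0.10 (-0.56 to 0.36) for klf9.S (adjusted p = 0.83 and 0.75 from edgeR). The intervals are wide, at 20 to 45 counts per pool.

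thibz, which encodes a leucine zipper factor known in Xenopus as TH/bZIP, was almost without counts. thibz.L, at 149679410 to 149680596 on chromosome 3L, had 1 count in all CRISPant pools (of 89454911) and 0 in all control pools (of 90726059). A count of 0 allows a level of up to 0.033 CPM in the controls, for counting error only. thibz.S, at 125088959 to 125089974 on chromosome 3S, had 1 count in CRISPants and 1 in controls.

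**Figure D3:**
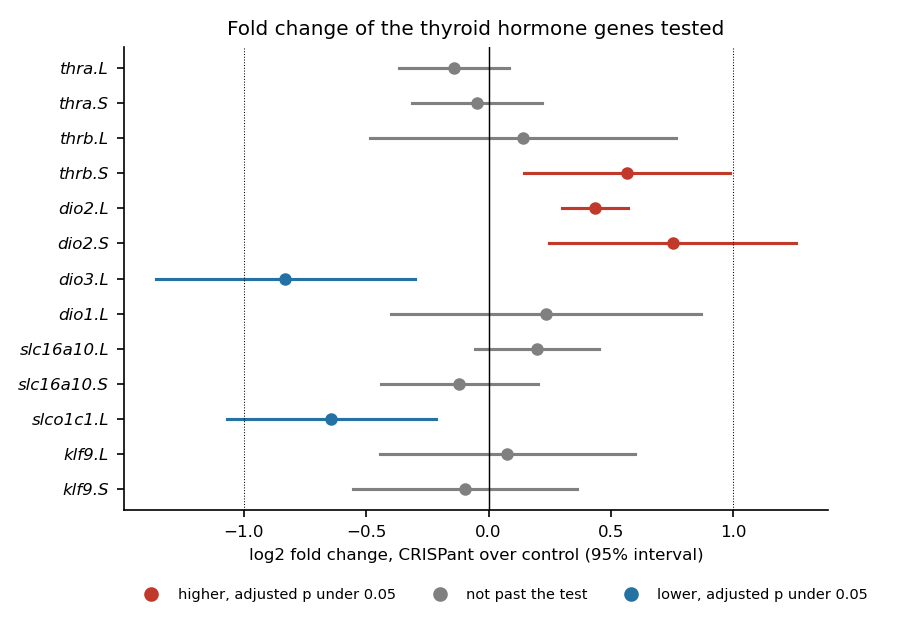
Log2 fold change of CRISPant over control (x axis) with its 95% interval from edgeR for the 13 thyroid hormone genes tested (y axis), coloured by call, with dotted lines at 2-fold. The intervals of dio2.L, dio2.S and thrb.S lie above 0, those of dio3.L and slco1c1.L below 0, and the other 8 include 0.

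The other genes of the pathway were read from 5 lists, against the background of 42.4% of all genes called. In the list of other transporters and binding proteins, 4 of 12 rows tested rose and 1 fell (median log2 fold change -0.01). The row that fell was slc7a8.L, with a log2 fold change of -0.13 (adjusted p = 0.045 from edgeR). Its homeologue slc7a8.S, also with -0.13, did not pass (adjusted p = 0.10 from edgeR). The largest change was in crym.S, which encodes mu-crystallin, a cytosolic protein that binds T3. It was at 11.6, 7.18, 11.1 and 12.2 CPM in CRISPant pools 3, 4, 7 and 9, against 3.72, 3.52, 2.74 and 2.30 CPM in control pools 1, 2, 4 and 5. Every CRISPant pool was above every control pool (log2 fold change 1.76 ± 0.18 SE, edgeR adjusted p = 6.0e-07). Of the large neutral amino acid carrier that also moves thyroid hormone, the light chain gene slc7a5 rose in both homeologues, with log2 fold changes of 0.25 for slc7a5.L and 0.27 for slc7a5.S (adjusted p = 0.0016 and 0.0024 from edgeR). Its heavy chain gene slc3a2 rose only as slc3a2.S, with a log2 fold change of 0.39 (edgeR adjusted p = 4.8e-06), while slc3a2.L averaged 282.6 CPM in CRISPants and 282.9 CPM in controls (edgeR adjusted p = 0.99).

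Among coactivators that the liganded receptor can recruit, 5 of 18 rows rose and 7 fell (median log2 fold change -0.02). The p160 coactivators fell in all 6 rows. ncoa3.S was at 63.7, 59.9, 62.7 and 55.9 CPM in CRISPant pools 3, 4, 7 and 9, against 116, 114, 109 and 105 CPM in control pools 1, 2, 4 and 5, which is a log2 fold change of -0.88 ± 0.06 (SE, edgeR adjusted p = 3.7e-10). The groups did not overlap. On the same log2 scale, ncoa3.L fell with -0.66, ncoa1.S with -0.35, ncoa1.L with -0.28, ncoa2.S with -0.26 and ncoa2.L with -0.19 (adjusted p from 2.6e-04 to 0.0073 from edgeR). The arginine methyltransferases that act with them rose, with log2 fold changes of 0.74 for prmt1.L, 0.71 for prmt1.S, 0.43 for carm1.S and 0.16 for carm1.L. The first 3 had adjusted p between 5.5e-06 and 1.2e-04 from edgeR. carm1.L, where the groups overlapped, had an adjusted p = 0.038 from edgeR. Its call was lost in 6 of 14 alternatives, with an adjusted p of up to 0.13 from edgeR. The ncoa1 and ncoa2 rows, ncoa3.L, carm1.L, slc3a2.L and trh.L were named after their values were seen. So were gps2.L, slc7a8.L, slc7a8.S, klf13.L, klf13.S, camk4.L, mbp.L, shh.S, crhbp.L, nr3c1.L, nr3c2.S and the cell type markers given with values.

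Among receptor partners and the corepressor complex, 2 of 14 rows rose and 3 fell (median log2 fold change -0.11). gps2.S, a member of the corepressor complex, fell (log2 fold change -0.36, edgeR adjusted p = 1.4e-04). Its homeologue gps2.L, with -0.11, did not pass (adjusted p = 0.18 from edgeR). For tbl1xr1, another member of the complex, the homeologues went opposite ways, with log2 fold changes of 0.23 for tbl1xr1.L and -0.41 for tbl1xr1.S (adjusted p = 0.0066 and 1.9e-04 from edgeR).

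Of 22 rows tested from other genes known to respond to thyroid hormone in frogs or mammals, 1 rose and 5 fell (median log2 fold change -0.20). That is 27.3% called, below the 42.4% of all genes. The row that rose was klf13.S, with a log2 fold change of 0.34 (adjusted p = 0.027 from edgeR). Its homeologue klf13.L, with 0.11, did not pass (adjusted p = 0.22 from edgeR). Those that fell included mbp.S, a myelin protein gene, with a log2 fold change of -0.28, the ligand gene shh.L with -0.37 and crhbp.S, a binding protein of corticotropin-releasing hormone, with -0.55 (adjusted p = 0.0011, 0.0017 and 0.0017 from edgeR). camk4.S, a calcium-dependent kinase gene, fell with -0.30 (adjusted p = 0.025 from edgeR), a call lost without control pools 1, 2 or 5 or CRISPant pool 9. Of the other homeologues, camk4.L fell with -0.22 (adjusted p = 0.031 from edgeR). mbp.L, shh.S and crhbp.L did not pass (adjusted p = 0.056, 0.52 and 0.17 from edgeR).

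Of 22 rows of the hypothalamic and pituitary axis, 2 rose and 5 fell (median log2 fold change 0.08). trh.S, which encodes thyrotropin-releasing hormone, was at 32.1, 31.2, 28.8 and 31.9 CPM in CRISPant pools 3, 4, 7 and 9, against 39.6, 47.0, 40.8 and 42.7 CPM in control pools 1, 2, 4 and 5 (log2 fold change -0.45 ± 0.07 SE, edgeR adjusted p = 1.8e-05). All CRISPant pools were below all control pools. trh.L averaged 16.6 CPM in CRISPants and 15.7 CPM in controls and did not pass (log2 fold change 0.08, edgeR adjusted p = 0.57). Of the corticosteroid receptor genes, nr3c2.L rose and nr3c1.S fell, with log2 fold changes of 0.48 and -0.41 (adjusted p = 0.0022 and 0.0081 from edgeR). Of their other homeologues, nr3c1.L fell with -0.27 (adjusted p = 0.014 from edgeR), while nr3c2.S, with 0.26, did not pass (adjusted p = 0.18 from edgeR).

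The prolactin gene prl.2.S was at 4.71, 5.60, 3.36 and 3.93 CPM in CRISPant pools 3, 4, 7 and 9, against 2.36, 1.39, 2.34 and 1.18 CPM in control pools 1, 2, 4 and 5 (log2 fold change 1.26 ± 0.22 SE, edgeR adjusted p = 1.2e-04). It was the only one of 8 pituitary marker rows tested that passed, which is 12.5% called against 42.4% of all genes. The summed level of these markers was 38.5 to 95.5 CPM in CRISPants and 49.1 to 63.8 CPM in controls, a wider range among the CRISPant pools, and the part of pituitary tissue in these values was not tested.

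**Figure D4:**
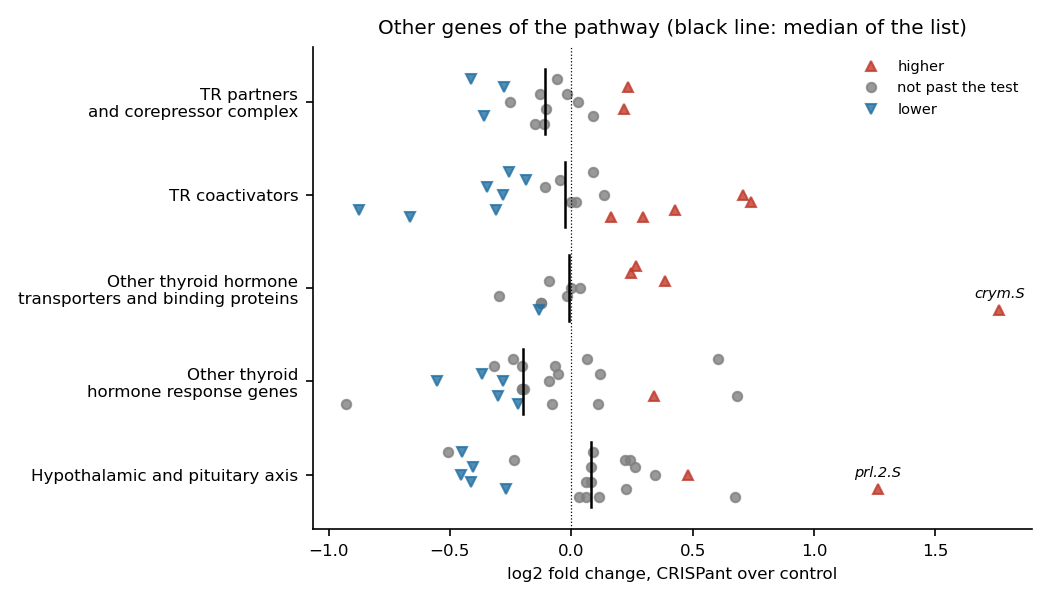
Log2 fold change of CRISPant over control (x axis) for each row tested in the 5 lists of other pathway genes (y axis), with upward red triangles for rows that rose, downward blue triangles for rows that fell, grey circles for rows that did not pass, and a black line at the list's median. crym.S at 1.76 and prl.2.S at 1.26 are the only rows past 2-fold, and the medians lie between -0.20 and 0.08.

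Other cell types were checked by their marker lists. Neuron markers summed to 3264 to 3709 CPM in CRISPants and 3436 to 3615 CPM in controls. Of 14 rows tested, 1 was higher and 6 were lower, which is 50% called against 42.4% of all genes. The 6 lower ranged in log2 fold change from -0.21 for snap25.L to -1.27 for syt1.L (adjusted p = 0.011 and 2.5e-04 from edgeR). syt1.L was a low row, with means of 0.81 CPM in CRISPants and 1.92 CPM in controls. Its homeologue syt1.S, with a mean of 338 CPM in controls, fell with -0.25 (adjusted p = 0.0015 from edgeR). Apart from syt1.L, the largest fall was -0.33 for nefl.L (adjusted p = 0.035 from edgeR). The row that rose was tubb3.L, with 0.33 (adjusted p = 1.9e-05 from edgeR), while tubb3.S, with 0.08, did not pass (adjusted p = 0.19 from edgeR). Meninges and fibroblast markers summed to 341 to 369 CPM in CRISPants and 278 to 303 CPM in controls. Of 15 rows tested, 5 were higher and 3 lower, which is 53.3% called against the same 42.4%. All 5 higher rows were collagen genes, of which col1a1.L rose most, with a log2 fold change of 1.38 (adjusted p = 1.9e-08 from edgeR). The most abundant rows in this sum were zic1.L and zic1.S, with means of 83.1 and 82.9 CPM in controls. Neither passed (log2 fold changes 0.009 and 0.02, adjusted p = 0.92 and 0.75 from edgeR). The 3 lower ranged from -0.35 for col1a2.S to -0.75 for lum.L (adjusted p = 0.046 and 0.041 from edgeR). Genes of the thyroid gland summed to only 2.50 to 3.47 CPM in CRISPants and 2.73 to 3.52 CPM in controls, 2 of 16 rows could be tested, neither passed, and duox2.S was at 0 counts in every pool.

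The gene of the set with the smallest p, dio2.L, was compared with 20507 other named genes. Those with the highest Pearson correlations of log2 CPM over the 8 pools included ckap4.S (r = 0.995), atad5.L (0.994), tspan6.L (0.993) and gjc1.L (0.991). These 4 were also higher in CRISPants, with log2 fold changes of 0.68 to 0.84. That direction follows from how they were chosen, since dio2.L itself was higher in every CRISPant pool. With the mean of each group subtracted, the correlations over the 8 pools were 0.94 to 0.97. The correlations are the highest of many and are given as a description.

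**Figure D5:**
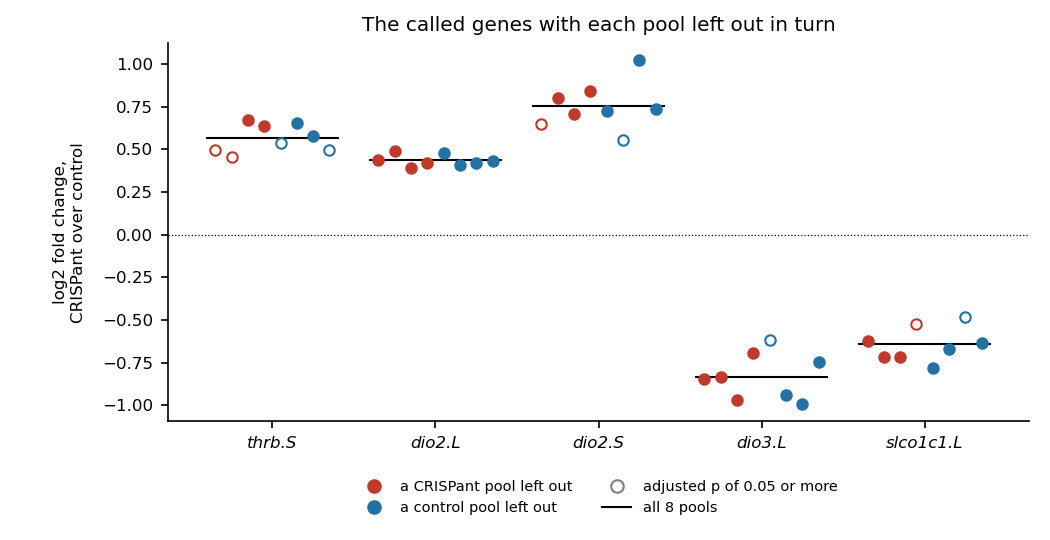
Log2 fold change of CRISPant over control (y axis) for the 5 called genes with each CRISPant pool (red) or control pool (blue) left out in turn, open where the adjusted p from edgeR is 0.05 or more, with a line at the value over all 8 pools. dio2.L keeps its call in all 8 fits, while the other 4 genes lose theirs in 1 to 4 fits and keep their direction.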

How the data were processed

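The deposited table holds raw read counts per gene, whole numbers with no normalisation. The authors used DRAGEN to map single reads from stranded mRNA libraries to XENLA_10.1 and FeatureCounts to count them, whose strand and multi-mapping settings are not given in the sources used here. Reads shared by near-identical homeologues may therefore be split or lost. Rows were matched to the gene names after removing a final .L or .S and then a final dot and digit. The genes and lists were chosen with earlier results of these data known. Of the 16 rows, 14 matched RefSeq symbols of the v10.1 assembly, which gave coordinates. The listed symbols hr, nrgn, gh, gfap, s100b and duox1 matched no row and were not analysed here. RefSeq lengths are gene spans, so levels are not compared between genes.

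Counts were filtered with filterByExpr (minimum count 10), scaled by TMM and compared in edgeR 4.0.16 (R 4.3.3; quasi-likelihood F-test, robust, condition as the only term), with Benjamini-Hochberg adjustment over 25171 genes. Standard errors and 95% intervals came from the F statistic. L to S ratios were tested with limma 3.58.1 on log2 CPM (prior count 2). Both tests were tested on simulated data first. Total counts per pool (18945762 to 25937707) set the precision of low genes. No pair of replicates agreed within sampling noise. Named genes were all rows of the set, up to 4 per other list with the smallest p, and exceptions named in the text. Some genes that this rule selects are not reported here, while counts over lists include all rows tested. Alternatives were RLE size factors, DESeq2 1.42.0, no filter, at least 1 CPM in at least 4 pools, no robust option, the likelihood ratio test, summed homeologues, each pool left out, and for ratios a prior count of 0.5 and limma-trend.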

Additional observations from a re-analysis of the deposited data

Results flagged for a closer look

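For slc16a10.S the highest pool of each group stood apart from the other 3. CRISPant pool 7 was at 4.05 CPM, against 3.01 to 3.16 CPM in the other CRISPant pools, and control pool 4 was at 3.96 CPM, against 3.45 to 3.53 CPM in the other control pools. These were 2 of 26 groups of 4 pools examined, and chance sets a pool apart in about 1 group in 20.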

How the results depend on the processing

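Under RLE size factors, DESeq2, no filter, the stricter filter, no robust option and the likelihood ratio test, the same 5 genes of the set were called. With homeologues summed, 1 gene was higher instead of 3, since dio2 then counts once and thrb lost its call. With a pool left out, the number of genes higher ranged from 1 to 3, of genes lower from 1 to 2, and of pairs with a changed L to S ratio from 0 to 1. That last number was also 0 with limma-trend. Among the genes followed through the alternatives, directions turned only for uncalled genes. With a pool left out, log2 fold changes ranged from -0.044 to 0.24 for klf9.L, -0.026 to 0.45 for thrb.L, -0.11 to 0.028 for thra.S and -0.045 to 0.061 for slc3a2.L, which was at 0.0018 with no filter. Of 39 other called genes followed through the alternatives, 36 kept their calls under every one run on them, and camk4.S, carm1.L and pecam1.S did not. Not followed were gps2.L, slc7a8.L, slc7a8.S, klf13.L, klf13.S, camk4.L, mbp.L, shh.S, crhbp.L, nr3c1.L, nr3c2.S, tubb3.S, syt1.L, syt1.S, nefl.L, snap25.L, lum.L, col1a2.S, zic1.L, zic1.S, slc2a1.L, slc2a1.S, pecam1.L and cldn5.S. The share of all genes called ranged from 29.7% with no filter to 44.9% with the stricter filter. No paired analysis was possible because the groups share only 1 replicate number, 4. Depth limits thibz and dio3.S, which could not be tested, and the wide intervals of klf9, dio1.L and thrb.L.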
